A study of Mus musculus with 16 samples.

Results

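The Iroquois genes Irx1, Irx2, Irx3, Irx4, Irx5 and Irx6 and the noncoding transcript 4933436C20Rik, which lies beside Irx5, were examined in mouse cardiomyocytes sorted by the surface level of integrin alpha 6 (ITGA6). The members were the probes that carry one of these 7 gene names (8 probes) and the probes for unnamed intervals of chromosome 8 that lie beside Irx5 (11 probes for 3 intervals, 6 on the reverse and 5 on the forward strand), 19 of the 55681 probes on the microarray. The genes were selected on measured values: the differences between the sorted fractions at both stages were known when they were chosen. Their levels in the 4 groups are therefore given as a description, and no p-value is attached to a member. Adjusted p-values are given only for other genes.

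Hearts of wild-type CD1 mice were used at embryonic day (E) 15.5 and postnatal day (P) 2, and 4 independent experiments were profiled for each of the 4 groups, 16 samples in all. At E15.5, 20 to 30 hearts were pooled per experiment and cells positive for the receptor ERBB-2 were sorted into an ITGA6low fraction (EL) and an ITGA6high fraction (EH). At P2, 15 hearts were pooled, cells other than myocytes were depleted and the remainder was sorted into an ITGA6low fraction (PL) and an ITGA6high fraction (PH). No allele, transgene or agent differed between the groups. RNA of at least 50000 cells was used for each sample, and 10 ng of it was amplified, labelled with Cy3 and hybridised to a 1-colour Agilent microarray. Samples are named by the number in their label (2, 3, 6 and 8 at E15.5, 2, 3, 4 and 5 at P2), which is not stated to mark a shared experiment or pool. Each sample is a pool of hearts, so the spread reported is that between experiments and not between animals. All P2 samples were on a slide of their own and were purified without sorting for ERBB-2, so stage, slide and purification cannot be told apart.

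Iroquois proteins are homeodomain transcription factors of the TALE class, which carry a short insertion in the homeodomain. In mammals their genes lie in a pair of clusters, with Irx1, Irx2 and Irx4 in the first and Irx3, Irx5 and Irx6 in the second. In the heart, Irx4 is known as a ventricular gene that represses atrial genes, Irx3 for its role in the ventricular conduction system, and Irx5 for the gradient of potassium channel expression across the ventricular wall. 4933436C20Rik is listed by RefSeq under its present name Crnde, a long noncoding RNA transcribed away from Irx5 on the opposite strand.

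The sorted fractions were checked against markers of their labelled cell type. All 8 pan-cardiomyocyte markers were detected well above background in each of the 16 samples. The summed signal of 4 ventricular markers, of which Myh7 was the most abundant in EL and Myl2 in the other groups, was 463809 ± 10420 for EL against 177355 ± 35198 for EH, and 337572 ± 17009 for PL against 29997 ± 5141 for PH (SD, n = 4). The summed signal of 4 atrial markers, of which Nppa was the most abundant, was 21737 ± 2537 for EL against 420031 ± 10532 for EH, and 25196 ± 17520 for PL against 666853 ± 46856 for PH (SD, n = 4). Ventricular markers were thus the more abundant in both ITGA6low groups and atrial markers in both ITGA6high groups, while EH still carried a ventricular sum that was above that of PH in every sample.

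Which probes carry the values below is shown by their sequences, read from the deposited files. The microarray holds a single probe of 60 bases for Irx1, Irx3, Irx4, Irx5 and Irx6, and a pair of probes for Irx2. The first 30 bases of the probes for the genes that were detected were:
Irx1: ctttgtttcttttttcccctttctgtatat
Irx2: gatacctacggttccagtttattcacatag
Irx3: gtctgactctttttgtatatacgggaaaat
Irx4: aagatgagaagaccggagagcacagccgat
Irx5: tatggagatggatggcataaaaatgtatac
The longest run of bases shared by full-length probes of 2 different Irx genes was 8 bases, so that the genes were read by separate sequences. The noncoding transcript was read by 4 bright probes, shown in full because their readings are compared with each other below:
4933436C20Rik: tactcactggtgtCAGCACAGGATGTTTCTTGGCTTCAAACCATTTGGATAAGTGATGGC
A_30_P01032525: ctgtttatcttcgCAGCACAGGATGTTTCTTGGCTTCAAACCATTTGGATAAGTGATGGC
A_30_P01032788: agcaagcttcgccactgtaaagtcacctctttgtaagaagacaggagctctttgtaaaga
A_30_P01027299: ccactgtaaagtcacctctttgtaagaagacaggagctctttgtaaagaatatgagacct
Capitals mark the run of 47 bases that the probe named 4933436C20Rik shares with A_30_P01032525. The 13 bases before this run differ, and the files place the 4933436C20Rik probe over 18450 bases (mm9 chr8:94850318-94868767, minus strand) and A_30_P01032525 over 60 contiguous bases (chr8:94850318-94850377), so the named probe spans a splice junction and the other does not. A_30_P01032788 (chr8:94850258-94850317) and A_30_P01027299 (chr8:94850247-94850306) share 49 bases with each other. The 4 probes are not independent measurements of the transcript.

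Among the members well above background in all 16 samples, Irx4 had the widest separation of the fractions. Its probe lies at chr13:73406712-73406771 (plus strand, mm9) and was well above background in all 16 samples. The normalised signal (linear, quantile-normalised) was 2114, 1849, 2130.3 and 1887 in the EL samples, 361, 364, 418 and 471 in EH, 3372, 3656, 2491 and 2812 in PL samples, and 75.1, 56.9, 64.8 and 61.2 for PH. None of the groups overlapped, and their order was PL, EL, EH, PH from the highest to the lowest. The log2 difference was -2.31 ± 0.13 (SE, n = 4 and 4) between EH and EL, or 4.96-fold lower in EH, and -5.57 ± 0.13 between PH and PL, or 47.5-fold lower in PH. The SE of a difference is that of the limma fit, in which all 16 samples share a single spread per probe, so it is the same at both stages. In these sorted populations, fewer cells with the transcript and less RNA per cell cannot be told apart. The difference was larger at P2 (difference between the stages -3.26 ± 0.18, log2). Within the ITGA6high fractions Irx4 was 6.25-fold lower at P2 than at E15.5, and within the ITGA6low fractions it was 0.61 higher on the log2 scale at P2. With normexp background correction in place of the scanner's the P2 difference was -4.58.

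Irx1, known to be expressed with Irx2 in the ventricular septum, was read at chr13:72095735-72095794 (minus strand). It was well above background in all samples, at 563, 514, 528 and 666 in the EL samples, 242, 349, 348 and 400.1 in EH, 311, 387, 516 and 422 in PL samples, and 24.4, 24.5, 30.1 and 42.7 for PH. EL was above EH without overlap, EH and PL overlapped, and every PH sample was below every other sample. The log2 difference was -0.78 ± 0.21 at E15.5 (1.72-fold lower in EH) and -3.77 ± 0.21 at P2 (13.6-fold lower in PH), and PH was 11.1-fold below EH. The P2 difference was -2.30 with normexp background correction.

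Irx2 was read at chr13:72771499-72771558 (plus strand), at 121, 121, 119.6 and 155 in the EL samples, 61.9, 92.7, 116 and 127 in EH, 72.3, 81.1, 143 and 68.7 in PL samples, and 15.97, 3.88, 12.4 and 16.5 for PH. EL, EH and PL overlapped, and none of the 4 PH samples was well above background. For a group below background only a bound can be given, the mean of the brighter group over the mean (both of log2 values) in the dim group of the higher of the probe's own signal and the lowest signal of any probe well above background on that microarray. By this bound Irx2 was at least 5.10-fold lower in PH than in PL. The fitted log2 differences were -0.42 ± 0.41 at E15.5 and -3.04 ± 0.41 at P2. The P2 difference was -0.94 with normexp background correction, under the 3-fold limit described below. The second Irx2 probe was well above background in 1 EL and 3 EH samples and in no sample at P2, and no fold is given for it. Its fitted E15.5 difference was 0.44 ± 0.31, opposite in sign to that of the brighter probe, and EL and EH overlapped in both probes.

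In the second cluster, Irx3 was read at chr8:94322476-94322535 (minus strand) and was well above background in all 16 samples. Its signal was 156, 158, 151 and 169 in the EL samples, 216, 319, 280.0 and 412 in EH, 424, 453, 643 and 503 in PL samples, and 22.9, 28.3, 39.1 and 40.7 for PH. The groups did not overlap, and their order was PL, EH, EL, PH. Unlike the genes of the first cluster, Irx3 was higher in EH than in EL (log2 difference 0.91 ± 0.21, 1.88-fold), whereas at P2 it was 15.7-fold lower in PH than in PL (-3.97 ± 0.21). From E15.5 to P2, Irx3 was 3.15-fold higher in the ITGA6low fraction and 9.37-fold lower in the ITGA6high fraction. The P2 difference between the fractions was -2.46 with normexp background correction.

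Irx5 was read at chr8:94884923-94884982 (plus strand) and was dim: 7.72, 12.2, 13.99 and 15.4 in the EL samples, 18.2, 28.9, 45.3 and 52.8 in EH, 28.8, 44.3, 50.2 and 35.5 in PL samples, and 3.69, 11.3, 3.22 and 3.96 for PH. It was well above background in all 4 EH and all 4 PL samples, which overlapped, and in no EL or PH sample. By the bound defined above it was at least 2.29-fold higher in EH than in EL and at least 2.42-fold lower in PH than in PL. The fitted log2 differences were 1.49 ± 0.41 and -3.02 ± 0.41. With normexp background correction they were 0.40 and -0.60, and with all signals raised to the lowest signal well above background the P2 difference was -1.28. Irx6, at chr8:95203880-95203939 (plus strand), was well above background in 0 of 16 samples, and its fitted differences were -0.16 ± 0.42 and 0.11 ± 0.42.

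**Figure D1:**
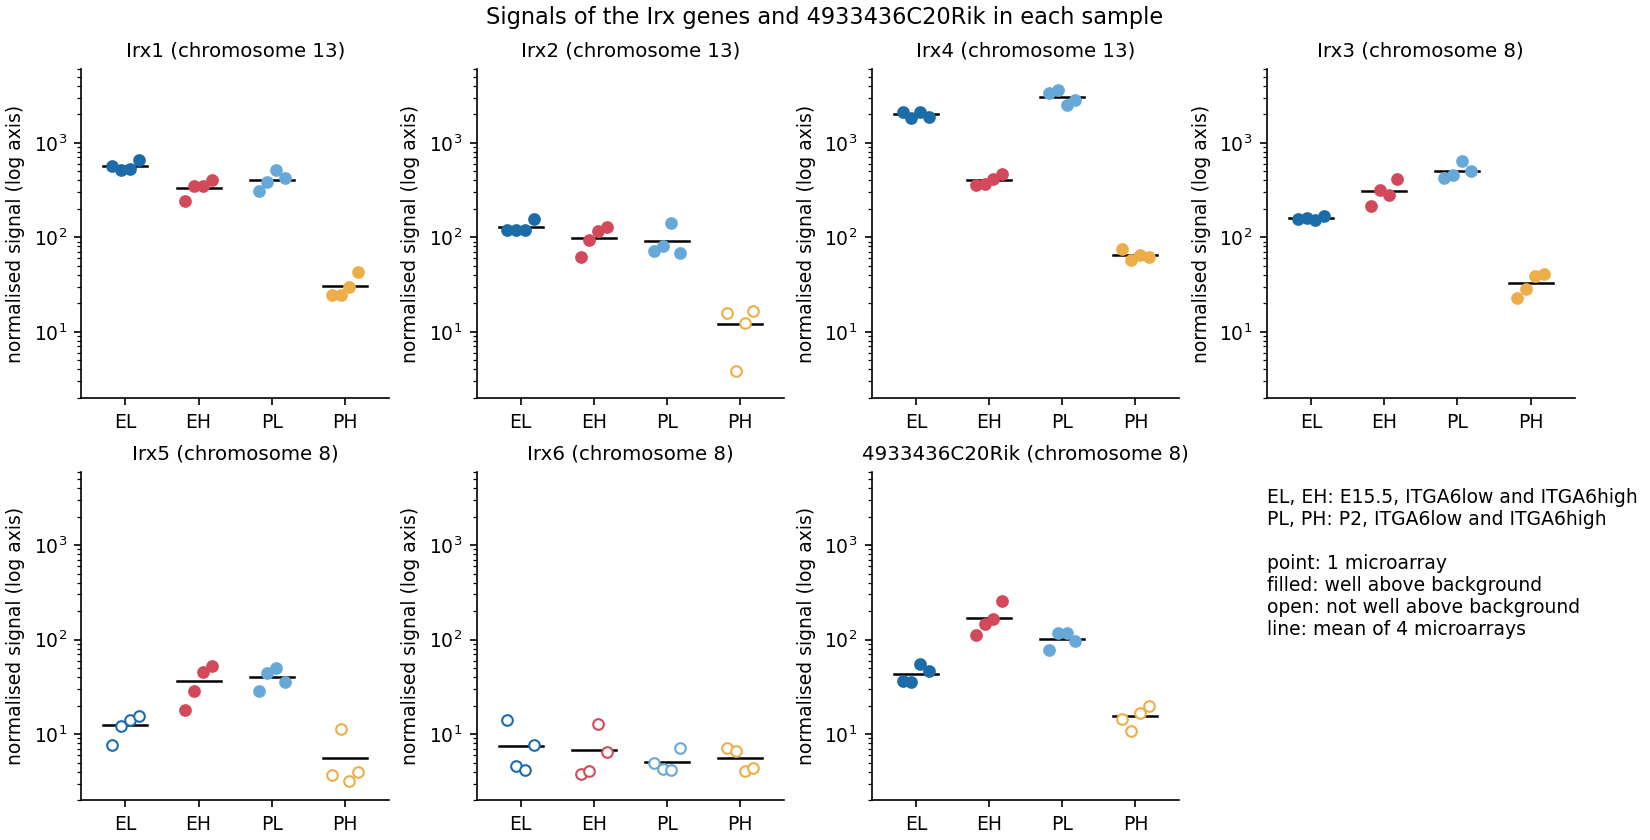
Normalised signal (log axis) of the Irx genes and 4933436C20Rik in every sample, 4 points per group, with filled points for samples well above background and open points for the others, and a bar at the group mean. Irx4 and Irx1 are lower in EH than in EL, Irx3, Irx5 and 4933436C20Rik are higher in EH, and PH has the lowest mean for every gene except Irx6.

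The transcript 4933436C20Rik was at 36.1, 35.8, 54.9 and 46.7 in the EL samples, 112, 146, 166 and 253 in EH, 76.9, 118, 118 and 95.6 in PL samples, and 14.5, 10.67, 16.6 and 19.9 for PH. Every EH sample was above every EL sample, EH and PL overlapped, and no PH sample was well above background. It was 3.79-fold higher in EH than in EL (log2 difference 1.92 ± 0.26) and at least 5.65-fold lower in PH than in PL (fitted -2.74 ± 0.26). With normexp background correction the differences kept their direction at 1.10 and -1.17, both under the 3-fold limit. It thus had the directions of Irx5 and Irx3 at both stages, and the opposite direction to Irx4 and Irx1 at E15.5.

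Of the 6 unnamed reverse-strand probes, the 3 that were detected hold part or none of that sequence and had the same directions. A_30_P01032525, whose first 13 bases continue the shared run on the genome instead of crossing the junction, was at 23.4, 31.9, 35.6 and 24.9 in the EL samples, 54.2, 92.1, 85.6 and 138 in EH, 61.0, 84.2, 67.3 and 43.0 in PL samples, and 13.4, 11.9, 11.5 and 11.0 for PH. It was 3.07-fold higher in EH than in EL. A_30_P01032788, which shares a run of at most 6 bases with A_30_P01032525, was well above background in all 16 samples, at 62.9, 84.4, 86.0 and 95.3 in the EL samples, 191, 316, 309 and 445 in EH, 130.3, 222, 199 and 149 in PL samples, and 35.3, 31.7, 39.3 and 33.6 for PH. It was 3.72-fold higher in EH than in EL and 4.91-fold lower in PH than in PL, so that here both differences were measured above background. Over the alternatives that keep all samples, its smallest log2 differences were 1.38 and -1.25, both under the 3-fold limit. A_30_P01027299 was 3.35-fold higher in EH and at least 5.52-fold lower in PH. In each of these probes EH was above EL and PL above PH without overlap.

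Along the reverse strand the signal lay in adjoining probes. The 3 bright reverse probes lie side by side, with starts between -34.676 and -34.605 kb from the Irx5 probe, and the adjacent reverse probes at -34.543 and -34.482 kb were well above background in 0 of 16 samples. The next, at -34.422 kb, was well above background in 2 of 4 EL, 2 of 4 EH, 2 of 4 PL and 0 of 4 PH samples, at 19.6, 5.97, 11.9 and 22.7 in EL and 41.4, 9.06, 7.25 and 27.4 in EH, which overlapped. By their positions these dimmer reverse probes lie in the stretch that the 4933436C20Rik probe skips at its splice junction. All 5 forward probes, between -12.959 and -12.697 kb, were well above background in 0 of 16 samples. Signal was therefore measured with probes for the minus strand, that of 4933436C20Rik, and was not detectable with the forward probes, which lie elsewhere in the interval.

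**Figure D2:**
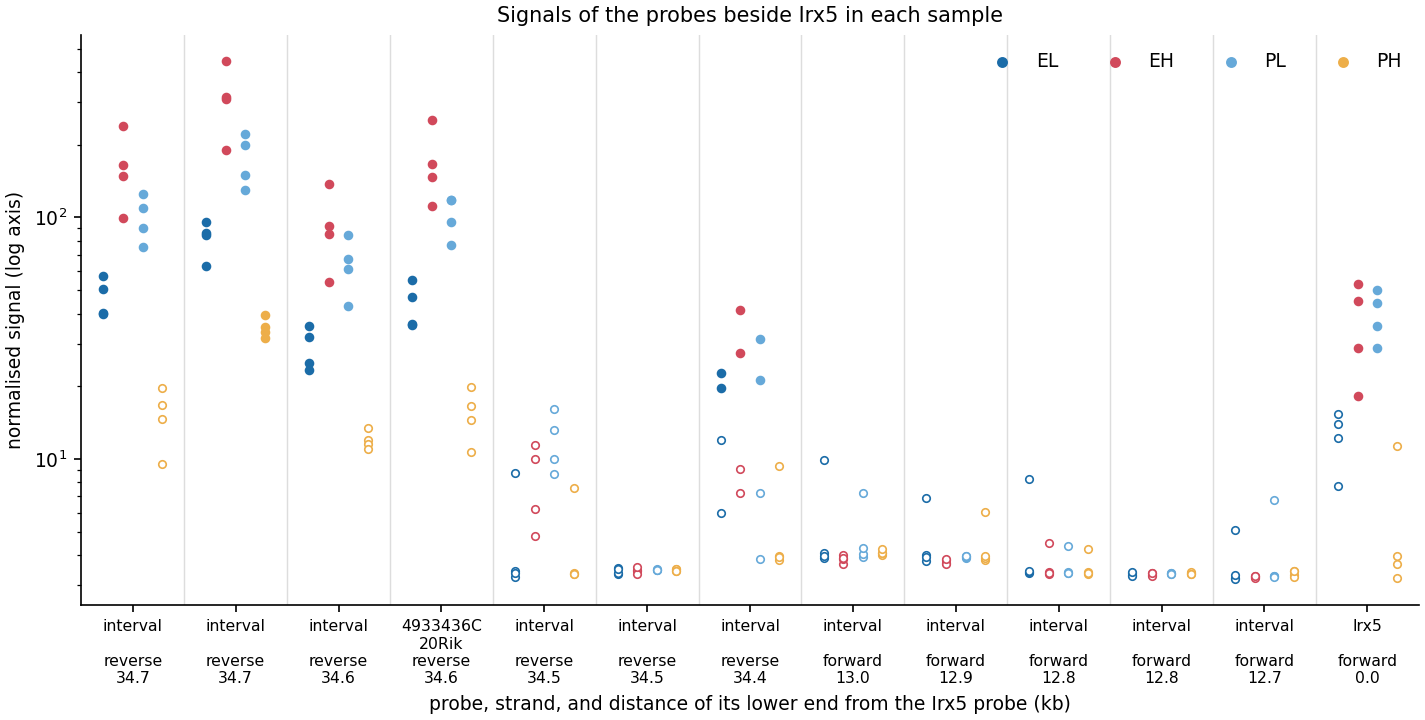
Normalised signal (log axis) of each probe beside Irx5 in every sample, with the probes in order along the chromosome and labelled by strand and by distance from the Irx5 probe in kb. The bright reverse probes and 4933436C20Rik share the order of the groups, with EH above EL and PH lowest, and the forward probes stay near background in all groups.

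Counted over all members with the limits of the study (adjusted p of at most 0.05 and at least 3-fold), 4 of 19 probes were higher in EH than in EL and 1 was lower, against 1.17% of all 55681 probes higher and 0.454% lower. At P2, 0 of 19 were higher in PH and 10 were lower, against 1.73% and 0.916% of all probes. For the difference between the stages, 0 of 19 were higher and 11 lower, against 0.602% higher and 0.602% lower. Since these contrasts were known when the members were chosen, the counts are given beside the background shares and nothing is read from them. The median log2 difference of the 19 probes was 0.01 at E15.5 and -1.99 at P2, where that of all probes was -0.02 and -0.01. In EH against EL, A_30_P01032525 lay just inside the fold limit, at 3.07-fold, and Irx5 outside it by its fitted value, where EL was below background and the fold is a bound of at least 2.29. In PH against PL, the undetected probe A_30_P01022076 lay just outside, at a fitted log2 difference of -1.50. Only 9 of the 19 probes were well above background in all samples of at least 1 group.

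The fractions differed in opposite directions at the 2 stages, past both limits at each stage, for few probes of the whole microarray. There were 5 probes that were higher in EH and lower in PH by these limits, and 0 with the reverse pattern. Of the 5, 4 were 4933436C20Rik and its detected reverse-strand probes, and the other was Dcpp1, a secreted protein gene, with mean signals of 48.3 for EL against 158 for EH, and 224 for PL against 15.3 for PH. The members were chosen with both differences known. The 4 probes read the same transcript with overlapping sequences, so nothing is read from their share of the 5. With normexp background correction 0 member probes were called higher in EH, so none of the 4 kept the pair of calls, and without EH 8 at most 2 did. Irx3 had the same pair of directions without reaching the fold limit at E15.5, and Irx5 likewise. The differences between the stages were -2.99 ± 0.29 for Irx1, -2.62 ± 0.58 for Irx2, -4.88 ± 0.30 for Irx3, -4.50 ± 0.58 for Irx5 and -4.67 ± 0.36 for 4933436C20Rik, on the log2 scale. Those of Irx2, Irx5 and 4933436C20Rik rest on PH signals below background, and that of Irx5 on such EL signals too. With signals raised to the floor they were -1.93, -2.47 and -4.42, and with normexp background correction -0.70, -1.004 and -2.26. After that correction those of Irx1 and Irx3 were -1.63 and -3.17.

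**Figure D3:**
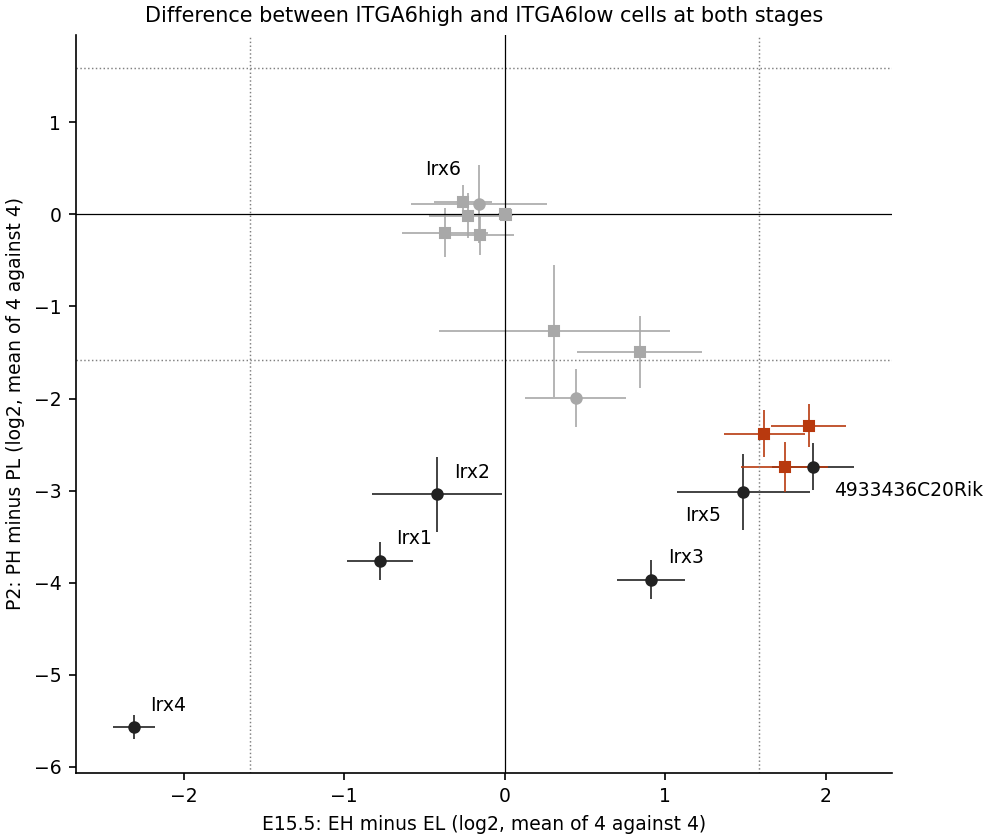
Log2 difference between ITGA6high and ITGA6low cells at E15.5 (horizontal axis) and at P2 (vertical axis) for the 19 member probes, with bars of 1 SE, circles for gene probes, squares for interval probes and dotted lines at 3-fold; probes that were not well above background in all samples of any group are grey. Irx4, Irx1 and the brighter Irx2 probe lie left of 0 and Irx3, Irx5, 4933436C20Rik and the red reverse-strand probes right of it, the dim second Irx2 probe (grey) lies at 0.44, while all detected members lie below 0 at P2.

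The direction at E15.5 did not rest on a single slide or sample for Irx1, Irx3, Irx4, Irx5 and 4933436C20Rik. Slide 1 held 3 EH and 2 EL samples and slide 2 held 1 EH and 2 EL samples. The log2 difference between EH and EL was -2.34 on slide 1 and -2.25 on slide 2 for Irx4, -0.92 and -0.58 for Irx1, 0.91 and 0.85 for Irx3, 1.47 and 1.79 for Irx5, and 1.97 and 1.90 for 4933436C20Rik. For Irx2 it was -0.60 and -0.06. Between samples of the same number, EH minus EL ranged from -2.55 to -2.003 for Irx4, from 0.47 to 1.28 for Irx3, from 1.24 to 1.78 for Irx5 and from 1.59 to 2.44 for 4933436C20Rik.

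The members varied together within EH. Sample EH 2 was the lowest and EH 8 the highest of the 4 EH samples for all 6 genes detected. The EH 2 microarray also stood apart, with 46.5% of probes well above background against 40.9% to 42.8% in the other EH samples and a median signal before normalisation of 14.7 against 8.41 to 9.67, and the part of this in the values was not tested. The log2 deviation of EH 2 from its group mean was -0.88 for Irx5 and -0.15 for Irx4, and that of EH 8 was 0.66 and 0.23. At P2, PL 4 was the highest PL sample for 5 of the 6 genes and the lowest for Irx4. Leaving out EH 2 gave log2 differences at E15.5 of 2.10 for 4933436C20Rik, 1.78 for Irx5, 1.07 for Irx3, -0.63 for Irx1 and -2.26 for Irx4, and leaving out EH 8 gave 1.71, 1.27, 0.76, -0.87 and -2.39. Without EH 2, Irx5 met the 3-fold limit, and without EH 8, 2 member probes were called higher in EH in place of 4.

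Markers of other cell types moved with EH. Of 11 endothelial and endocardial markers, 3 were well above background in all EL samples, 10 in EH, 2 in PL and 3 in PH, and 6 of 11 were called higher in EH than in EL against 1.17% of all probes, while 0 were called higher in PH. The summed signal of the list, in which Kdr was the most abundant, was 1213, 1204, 1236 and 1354 in the EL samples, 1558, 1765, 4509 and 3342 in EH, 437, 531, 1259 and 1724 in PL samples, and 671, 822, 805 and 1319 for PH. Outside EH this sum was mostly Kdr, at 1037 of 1252 for EL, 808 of 988 for PL and 619 of 904 for PH (means). Unlike the list's median over detected markers (log2 difference 3.66), Kdr was not higher in EH, at 834 (-0.34, EL and EH overlapping). Cdh5, a defining endothelial cadherin, was at 6.67 in EL, where it was well above background in no sample, and at 212 ± 175 in EH (SD, n = 4). Of 5 smooth muscle and pericyte markers, 1 was called higher and 0 lower in EH, against 1.17% and 0.454% of all probes. Their sum, in which Acta2 was the most abundant, was 57142 ± 2908 in EL against 43982 ± 4873 in EH (SD, n = 4). Acta2 differed by -0.81 on the log2 scale. The pericyte marker Rgs5 was called higher in EH, where it was well above background in 4 of 4 samples against 0 of 4 in EL (at least 2.33-fold), and Pdgfrb was 2.15-fold higher. Of 5 leukocyte markers, 2 were called higher in EH and 0 in PH, against 1.17% and 1.73% of all probes, and their sum in EH reached 6612 in EH 6. Of these 2, Lyz2 overlapped between EL and EH, with 2 of 4 EH samples well above background (at least 1.32-fold). The endothelial sum was lowest in EH 2, as were the members. It was highest in EH 6, followed by EH 8, where the members were highest. Without EH 6, the sample with the most endothelial signal, the E15.5 difference was 1.91 for 4933436C20Rik, 1.34 for Irx5 and 0.94 for Irx3. The part of these markers in the E15.5 differences was not tested. The ventricular sum in EH was 140656, 174733, 168820 and 225211, lowest in EH 2 and highest in EH 8, as were the members, and its part was not tested either.

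Markers of other cell types also differed at P2 and between the stages. For comparison, 1.73% of all probes were called higher and 0.916% lower in PH. Of 5 epicardial markers, 5 were well above background in all EL samples, 3 in EH, 0 in PL and 2 in PH, and Wt1 and Krt19 were called higher in PH. The epicardial sum, in which Krt19 was the most abundant in PH and Msln in the other groups, was 79.5, 30.5, 24.04 and 27.8 in PL and 114, 149.5, 190.2 and 119.9 in PH, without overlap, against 2585 ± 347 in EL and 1503 ± 627 in EH (SD, n = 4). Of 5 smooth muscle and pericyte markers, 1 was called higher and 1 lower in PH: Cnn1 differed by 2.42 on the log2 scale and Acta2 by -2.79. Of 8 fibroblast markers, 0 were called higher and 1 lower in PH, Postn at a bound of at least 3.16-fold with no PH sample well above background, and the median of the 7 detected was -0.31. The fibroblast sum, in which Col1a2 was the most abundant, was 17169.5 ± 4298 for EL against 897 ± 497 for PL, and 8853 ± 2312 for EH against 675 ± 125 for PH (SD, n = 4), so that it was lower at P2 in both fractions. The part of these markers in the P2 differences and in the differences between the stages was not tested.

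At P2 the atrial sum in PL was 11263, 23799, 50286 and 15435, highest in PL 4. Leaving out PL 4 gave P2 differences of -5.67 for Irx4, -3.65 for Irx1, -2.80 for Irx2, -3.85 for Irx3, -2.89 for Irx5 and -2.66 for 4933436C20Rik. Among conduction system markers, Cntn2 and Hcn4 were well above background in no sample. In every group 4 markers of the list were detected, and the list summed to 1537 ± 104 for EL against 4505 ± 117 for EH, and to 2971 ± 502 for PL against 4910 ± 570 for PH (SD, n = 4). Of 7 markers on the list, 1 was called higher at each stage, against 1.17% of all probes at E15.5 and 1.73% at P2. This was Etv1, at 527 for EL against 3438 for EH and at 577 for PL against 2585 for PH, while the log2 differences at E15.5 and P2 were 0.67 and -0.70 for Tbx3, 0.02 and 1.18 for Id2, and -0.34 and -0.61 for Cacna1g.

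**Figure D4:**
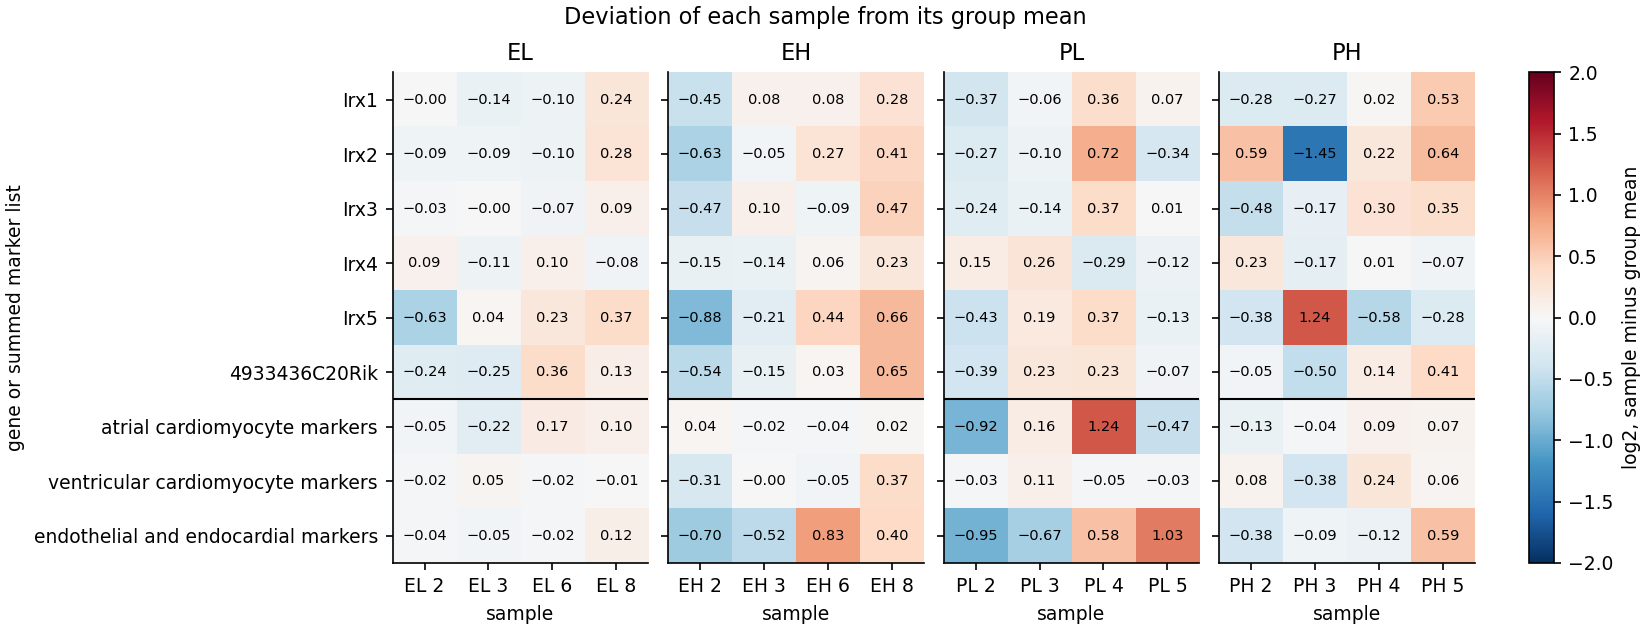
Log2 deviation of each sample from its group mean for the 6 detected genes (above the line) and for 3 summed marker lists (below it), 4 samples per group, with the value printed in each cell. In EH all genes are lowest in EH 2 and highest in EH 8, and the endothelial markers are lowest in EH 2 and highest in EH 6.

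Genes around the clusters were examined next, because they were not used to choose the members. Within 1000000 bases of the Irx probes, 22 named genes on chromosome 13 and 27 on chromosome 8 had probes, and 23 of these 49 were detected in a group. Between EH and EL, 1 of 49 genes was called higher and 1 lower, and between PH and PL 2 were called higher and 7 lower. At E15.5 this is 2.04% higher and 2.04% lower, against 1.17% and 0.454% of all probes, and at P2 4.08% higher and 14.3% lower, against 1.73% and 0.916%. On chromosome 13 alone, 5 of 22 genes (22.7%) were called lower at P2. With the median over a gene's probes, 4 of the 49 neighbours were called lower at P2 in place of 7. The median log2 difference of the neighbours was -0.04 at E15.5 and -0.01 at P2, where that of all probes was -0.02 and -0.01. On chromosome 8 none of the 27 genes was called at E15.5 by limma, where 0 had an adjusted p of at most 0.05 and 2 an unadjusted p under 0.05. Of the 49 neighbours, 0 were called at E15.5 with normexp background correction, and 0 were called higher and 2 lower at P2.

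Beside Irx3, the transcript ENSMUST00000133337 (chr8:94329643-94329702, 7.11 kb from the Irx3 probe) was at 16.5 ± 2.18 for EL against 33.4 ± 5.83 for EH, and 61.8 ± 8.11 for PL against 8.67 ± 6.09 for PH (SD, n = 4). It was at least 3.74-fold lower in PH than in PL (limma, log2 difference -3.13, adjusted p = 8.66e-05), and its E15.5 difference of 1.01 did not pass (adjusted p = 0.176). The difference between the stages passed as well (-4.14, adjusted p = 0.000892). Close to the 4933436C20Rik probe, TC1719415 (2.12 kb away) was lower in PH by at least 1.29-fold (limma, -1.74, adjusted p = 0.0252), with 2 of 4 PL samples well above background, and this call was lost without PL 3, PL 4, PH 3 or PH 5 (adjusted p = 0.0657, 0.0779, 0.0819 and 0.0774), by the methods' test and with a floor. Ces1d, a carboxylesterase gene 490 kb from Irx6, was at least 6.96-fold higher in PH (limma, 3.88, adjusted p = 9.63e-06). Fto, whose introns are known to hold distant enhancers of Irx3, had differences of 0.01 and -0.06, neither of which passed (limma, adjusted p = 1 for both).

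On chromosome 13, the transcript D630045M09Rik (75.5 kb from the Irx4 probe) was at mean signals of 73.8 for EL against 13.97 for EH, and 236 for PL against 12.5 for PH. It was lower in the ITGA6high fraction at both stages, with log2 differences of -2.44 at E15.5 (limma, adjusted p = 0.00178) and -4.10 at P2 (adjusted p = 1.15e-05, at least 13-fold). Tppp, a tubulin-binding protein gene 766 kb away, was higher in the ITGA6high fraction at both stages, by 3.76 (limma, adjusted p = 1.32e-07, at least 4.66-fold) and 1.87 (adjusted p = 2.34e-05). The cation-chloride cotransporter gene Slc12a7 was lower in PH than in PL (limma, log2 difference -1.76, adjusted p = 1.80e-06). So were the Wnt inhibitor gene Nkd2 (limma, -2.64, adjusted p = 0.000404) and Ahrr, the repressor of the aryl hydrocarbon receptor (-1.72, adjusted p = 2.84e-06). The sodium-proton exchanger gene Slc9a3 was lower in PH by a fitted -2.15 (limma, adjusted p = 6.24e-05). Of its samples, 2 of 4 PL and 0 of 4 PH were well above background. With a floor its call was lost (limma, -0.49, adjusted p = 0.106). Slc12a7, Nkd2, Slc9a3 and Ahrr had 2 probes each, and with the median over a gene's probes fewer neighbours were called lower in PH (4 in place of 7). After normexp background correction, the calls that remained among the neighbours of both chromosomes were those of D630045M09Rik and Slc12a7 in PH against PL. Without EH 2, Nkd2 was also called lower in EH, at -1.65. Ndufs6, a subunit of respiratory complex I and among the nearest named genes to Irx4, was lower in EH (log2 difference -0.65) and in PH (-0.71) (limma, adjusted p = 3.27e-05 and 7.1e-06), under the 3-fold limit.

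**Figure D5:**
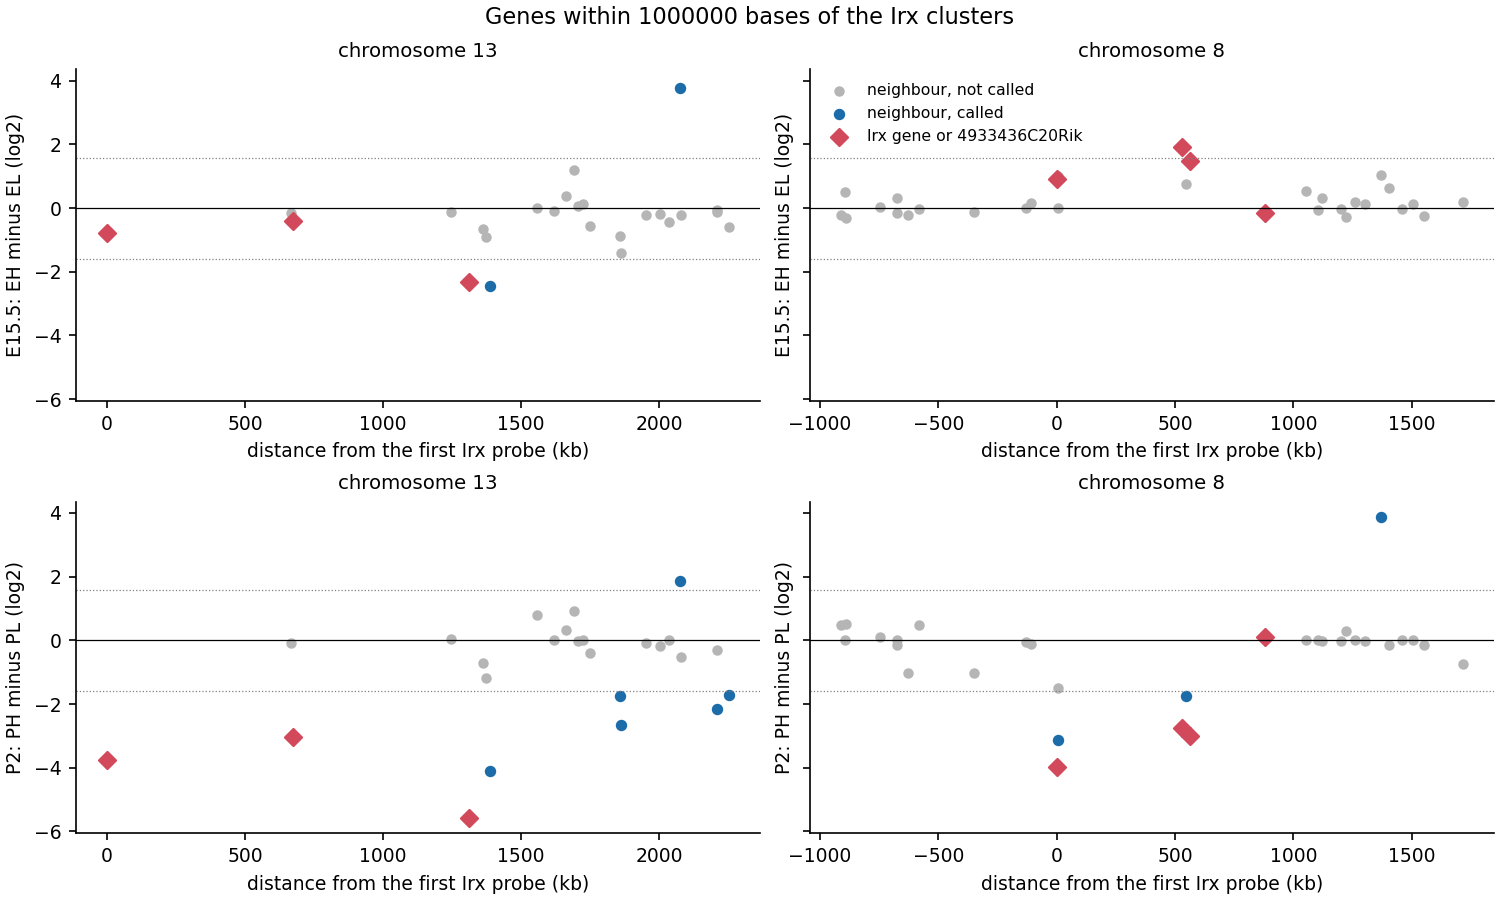
Log2 difference between ITGA6high and ITGA6low cells at E15.5 (top) and P2 (bottom) for named genes within 1000000 bases of the Irx clusters, against the distance from the first Irx probe of the chromosome in kb; dotted lines are at 3-fold, diamonds are the Irx genes and 4933436C20Rik, and blue points are neighbours that passed the limits. At P2 all diamonds except Irx6 lie below the lower dotted line, whereas most neighbours lie near 0.

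A list of 19 genes tied to the Iroquois factors in the heart (regulators, partners and targets), all detected, was examined as a whole. It gives no independent evidence, since several of its members were known from earlier results of these data. At E15.5, 4 were called higher in EH and 2 lower, and at P2, 4 were higher in PH and 4 lower. After normexp correction 2 were lower in PH, the calls of Kcnip2 (-1.27) and Hand1 (-0.15) being lost, and Vdr lost its call as well (1.05). The counts are 21.1% and 10.5% at E15.5 and 21.1% in each direction at P2, against 1.17%, 0.454%, 1.73% and 0.916% of all probes. The list's median log2 difference was -0.28 at E15.5 and -0.29 at P2. The nuclear receptor gene Nr2f2, known for atrial identity, was higher in the ITGA6high fraction by 4.57 at E15.5 (limma, adjusted p = 3.14e-08) and by 6.26 at P2 (adjusted p = 4.07e-10, at least 58.5-fold). The T-box gene Tbx5 was higher by 2.72 (limma, adjusted p = 5.95e-07) and 3.53 (adjusted p = 1.83e-08), and Gja5, the connexin gene of atria and fast conduction, by 3.27 (adjusted p = 3.99e-05) and 5.40 (adjusted p = 1.77e-07). The ventricular repressor gene Hey2 was lower, with log2 differences of -4.95 (limma, adjusted p = 1.33e-05, 1 of 4 EH samples well above background) and -6.07 (adjusted p = 8.9e-07, at least 14.6-fold). The myosin gene Myh7 was lower likewise, at -1.66 (limma, adjusted p = 2.12e-06; -1.56 without EH 2, under the 3-fold limit) and -4.48 (adjusted p = 1.67e-10). Myh6 was higher in EH by 1.84 (limma, adjusted p = 1.18e-07; 1.33 with 75th-percentile scaling, under the limit) and differed by -0.09 at P2 (adjusted p = 0.751).

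Among the genes of repolarisation in that list, Kcnip2, a subunit of the transient outward potassium channel, was lower at P2, at 277 ± 57.1 in PL against 77.0 ± 23.4 in PH (SD, n = 4, limma, log2 difference -1.88, adjusted p = 0.0145, or 0.0514 without PH 3), and without EH 2 it was called lower in EH too, at -1.60. Kcnd2, the channel's pore subunit and a known target of Irx5, differed by -0.30 at E15.5 (limma, adjusted p = 0.22) and by 0.07 at P2 (adjusted p = 0.918). Vdr, whose product is known to form a complex with Irx4, was higher in PH than in PL by a fitted 2.63 (limma, adjusted p = 0.00558, or 0.0658 with the replicate block), with 1 of 4 PL and 4 of 4 PH samples well above background. Hand1 was lower in PH than in PL (limma, log2 difference -1.62, adjusted p = 0.014) with 1 of 4 PL and 0 of 4 PH samples well above background. It was under the 3-fold limit without PL 3 (-1.30) or PL 5 (-1.49), with 75th-percentile scaling (-1.55) and with a floor (-0.36). The cardiac regulator Nkx2-5 differed by 0.21 at E15.5 (limma, adjusted p = 0.452) and 0.32 at P2 (adjusted p = 0.135), neither of which passed.

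Of 12 other TALE homeobox genes, 10 were detected. None was called at E15.5 by limma, where 4 had an adjusted p of at most 0.05 at a smaller fold and 5 an unadjusted p under 0.05; the methods' test called 0 as well. At P2 1 of the 12 (8.33%) was called higher in PH, against 1.73% of all probes, and 0 lower. This was Tgif1, a corepressor of TGF-beta signalling, at 78.1 ± 27.8 in PL against 325 ± 49.2 in PH (SD, n = 4, limma, log2 difference 2.12, adjusted p = 1.31e-05), and at 1.53 after normexp correction it was under the 3-fold limit. Meis2 was lower in the ITGA6high fraction, with log2 differences of -1.34 at E15.5 (limma, adjusted p = 4.53e-05) and -1.55 at P2 (adjusted p = 5.7e-06), or 2.53-fold and 2.94-fold. It was called lower in PH without PL 2 (-1.65), PH 3 (-1.59) or PH 4 (-1.60). Meis1, among the brightest of the list, did not meet the limits at either stage.

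The genes whose pattern over the 16 samples was most like that of each member were taken by Pearson's r of log2 signal over 14072 detected genes. The 16 samples share groups and slides, and r is a description. Irx4 was followed by Hddc2 (r = 0.996), the LIM protein gene Pdlim1 (r = 0.993) and TC1682680 (r = 0.992), Irx1 by LOC100862557 (r = 0.989) and Mpped2 (r = 0.987), and Irx2 by Mpped2 (r = 0.964) and the tubulin gene Tubb2a (r = 0.942), which was also among the 3 nearest to Irx1 (r = 0.983). The remaining gene of the 3 nearest to Irx2 was NAP000014-005 (r = 0.937). Irx3 was followed by Scube1 (r = 0.977), Fam181b (r = 0.928) and Sac3d1 (r = 0.926), Irx5 by Fam181b (r = 0.933), Scube1 (r = 0.886) and the endothelial receptor gene Robo4 (r = 0.885), and 4933436C20Rik by Srgap1 (r = 0.913), Dcpp1 (r = 0.911) and Fam181b (r = 0.910). Irx1 and Irx2 of the first cluster thus shared nearest genes, as did Irx3, Irx5 and 4933436C20Rik of the second. The 3 genes nearest to Irx4, also of the first cluster, were shared with no other member.

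RefSeq promoters (250 bases before to 50 after the start, GRCm38.p6, a later build than that of the probe coordinates) were at hand for Irx2, Irx3, Irx4 and Crnde. The Crnde promoter (chr8:92356071-92356370, minus strand) is shown because the transcript is the member whose direction turned between the stages past both limits:
Crnde: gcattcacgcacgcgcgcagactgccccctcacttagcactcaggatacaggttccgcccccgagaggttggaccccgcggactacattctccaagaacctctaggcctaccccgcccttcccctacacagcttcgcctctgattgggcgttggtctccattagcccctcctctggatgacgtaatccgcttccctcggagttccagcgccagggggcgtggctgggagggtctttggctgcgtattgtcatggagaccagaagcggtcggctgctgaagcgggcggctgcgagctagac
Its GC content was 62.7% with 22 CpG dinucleotides, against 56.0% and 14 for Irx3, 69.0% and 25 for Irx2 and 70.7% and 31 for Irx4. The median over all 32817 promoters was 52.7% GC. On either strand, none of the 4 promoters held ACANNTGT, the Iroquois motif, which 7.38% of all promoters held, the nuclear receptor motif AGGTCA (16.3%) or the T-box motif GGTGTGA (3.98%). No match says only that these letters are not in this window.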

How the data were processed

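RNA of 16 sorted samples was hybridised to 1-colour Agilent microarrays, and the authors deposited, per sample, files written by the Feature Extraction software (version 10.7.3.1) that give the background-corrected intensity of each spot, and, for the series, their log2 values. Probe positions were those of mm9 in the files. Here the processed intensity of 59305 spots other than controls was averaged over spots of a probe (55681 probes, 432 with more than 1 spot), leaving out outlier spots, quantile-normalised and put on the log2 scale, as the authors' methods describe. Differences were fitted with limma 3.58.1 (R 4.3.3) over all 4 groups and all probes without covariates, with Benjamini-Hochberg adjustment over all probes, and a probe was called at an adjusted p of at most 0.05 and at least 3-fold. A probe counted as detected (22250 probes) if all 4 samples of some group were well above background. A gene is represented by its brightest probe. The procedure was tested on simulated data, and tables were made with Python 3.11.15 and pandas 2.3.3.

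Named were all members, neighbours called at either stage, called genes of the lists with the brightest that were not called, and the 3 genes most like each member. Ndufs6, Fto, Kcnd2, Cdh5 and Meis2 were named after their values were seen. Some genes of the lists are not reported here. The members and lists were chosen with earlier results of these data known. No 2 samples held identical values, and 0 columns of per-sample values were left unused. Same-numbered samples deviated together at E15.5 (correlations of 0.255, 0.189, 0.450 and 0.379), where the number was taken to pair them from the correlations alone. At P2 1 of the 4 correlations was not over 0.1 (0.375, 0.176, -0.0305 and 0.542), and pairing by number was not established there. The replicate block nevertheless paired same-numbered samples at both stages. Alternatives were scaling to the 75th percentile, normexp background correction with an offset of 50, a floor, the median over a gene's probes, slide as a term, the replicate block, the methods' test, the authors' values and leaving out each sample. Precision is limited by the 4 microarrays per group. Between 35.7% and 46.5% of probes per microarray were well above background.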

Additional observations from a re-analysis of the deposited data

Results flagged for a closer look

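For 6 members the fitted difference between ITGA6high and ITGA6low cells was further below 0 at P2 than at E15.5. The members were chosen with these differences in view, so the values are a description and not a test. The log2 difference between the stages was -2.99 for Irx1, -2.62 for Irx2, -4.88 for Irx3, -3.26 for Irx4, -4.50 for Irx5 and -4.67 for 4933436C20Rik. For Irx1, the brighter Irx2 probe and Irx4 the fitted difference was negative at both stages and larger in size at P2, and for Irx3, Irx5 and 4933436C20Rik it was positive at E15.5 and negative at P2. With the replicate number as a block, Irx2 no longer met the limits. PH was below background for Irx2, Irx5 and 4933436C20Rik, and with signals raised to the floor their values were -1.93, -2.47 and -4.42. With normexp background correction the values were -1.63 for Irx1, -0.70 for Irx2, -3.17 for Irx3, -2.45 for Irx4, -1.004 for Irx5 and -2.26 for 4933436C20Rik. Stage, slide and the way the cells were purified cannot be told apart.

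In EL, the Irx2 signal of sample 8 was 155.3, far from the other 3 samples, which lay between 119.6 and 121. It was the only one set apart among 20 groups of 4 examined, and chance sets apart about 1 in 20. Without it the log2 difference between EH and EL was -0.33 in place of -0.42.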

How the results depend on the processing

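The direction of each of the 9 detected member probes held under the alternatives run for them at both stages. The median over a gene's probes was run for the neighbours and lists and not for the members. With normexp background correction, 164 probes were called higher and 43 lower in EH, 276 higher and 142 lower in PH, and 95 higher and 138 lower for the difference between the stages. Of the members, 0 were then called higher in EH, 3 lower in PH and 6 lower for the difference between the stages. Of the neighbours, 0 were called higher and 0 lower in EH, and 0 higher and 2 lower in PH, with 0 TALE genes higher and 2 related genes lower in PH. The differences were then -0.94 for Irx2 at P2, 0.40 and -0.60 for Irx5, and 1.10 and -1.17 for 4933436C20Rik. With signals raised to a floor, 422 probes were called higher in EH, 573 higher and 312 lower in PH, Irx5 was at -1.28 at P2, and the difference between the stages of the undetected probe A_30_P01022076 turned to 0.046. The median over a gene's probes called 2 neighbours lower in EH in place of 1, and 4 lower in PH in place of 7. Irx5 passed at E15.5 with 75th-percentile scaling (1.59) and with slide as a term (1.59). The 75th percentile shifted the median of all probes to -0.18 at E15.5 and -0.14 at P2. The methods' test called 662 probes higher and 256 lower in EH, and 946 higher and 497 lower in PH. The cause of these changes was not tested.

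Leaving out 1 sample at a time gave 2 to 5 members higher in EH (2 without EH 8), 1 to 2 neighbours lower in EH (2 without EH 2), 0 to 1 TALE genes lower in PH (1 without PL 2, PH 3 or PH 4), and 1.27 to 1.78 for Irx5 at E15.5, called at 1.78 without EH 2. With the replicate block, 674 probes were called higher and 243 lower in EH, 946 higher and 501 lower in PH, and 309 higher and 409 lower for the difference between the stages. The block took the call for the difference between the stages from Irx2 and A_30_P01022076, leaving 9 members lower, and took 1 related gene from those higher in PH, leaving 3, and it moved no other count of members, neighbours or listed genes.

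Signal over background limits Irx2 and 4933436C20Rik in PH and Irx5 in PH and EL, where the folds given are bounds and the fitted log2 values, leave-one-out values included, rest on signals below background. Irx6 was below background throughout.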
